A study of Mus musculus with 8 samples.

Results

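The 10 genes described here write or read the methylation of lysine 36 of histone H3 (H3K36), or belong to the elongation complex that travels with RNA polymerase II while the mark is written. They were chosen by name for these roles. They comprised the methyltransferases Setd2, Nsd1, Nsd2, Nsd3 and Ash1l, the readers Psip1, Morf4l1 and Zmynd11, and the elongation factors Supt6 and Iws1. All 10 were found among the 55487 genes of the count table, and all 10 passed the filter on low counts that left 19392 genes for testing.

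Bulk RNA-seq was performed on 8 libraries of mouse embryonic fibroblasts (MEFs) in which doxycycline, through the Rosa26-rtTA transactivator, switches on a Tet-O cassette of the reprogramming factors Oct4, Sox2, Klf4 and Myc (OSKM). All libraries came from a C57BL/6 background with the alleles Tet-O-OSKM +/T and Rosa26-rtTA +/T, and every library, B12 included, had received doxycycline for 72 h. MEFs named 61.3 and 61.5, derived from separate embryos, were each grown under 4 treatments, which lasted for the same 72 h. The first was 2 µM vitamin B12 with 2 µM of PF-9366, an inhibitor of MAT2A, the enzyme that makes the methyl donor S-adenosylmethionine (B12 + MAT2Ai). The others were 100 µM S-adenosylmethionine itself (SAM), 10 µM of NSC636819, which inhibits KDM4A and KDM4B, demethylases of histone lysines (NSC), and 2 µM vitamin B12 alone (B12). The SAM and NSC labels list no B12, and cells given doxycycline with no compound were not analysed here. The study asked whether B12 acts on reprogramming through the supply of methyl groups and through H3K36 trimethylation (H3K36me3). The comparisons below ask whether the transcripts of the enzymes and readers of that mark differed between the treatments. Each treatment had n = 2 libraries, so every p-value between treatments rests on 2 embryos. MEF was a term in the model, because libraries of the same MEF share an embryo.

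H3K36 methylation is laid down on the bodies of transcribed genes. SETD2 binds the phosphorylated tail of the elongating polymerase and is the main enzyme for the trimethyl form in mammals, while NSD1, NSD2, NSD3 and ASH1L mainly make the mono- and dimethyl forms. All of these enzymes use S-adenosylmethionine as the methyl donor. Proteins with PWWP domains or chromodomains then bind the mark, and it is known for keeping transcription from starting inside genes, for guiding DNA methylation and for roles in splicing and repair. The counts report on transcripts per gene, and neither the histone mark nor protein was measured in these libraries.

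Libraries held 27498180 to 38565685 counted reads. The lowest count of any of the 10 genes in any library was 1235 reads, for Iws1, so counting error was small beside the spread between libraries. The fibroblast label was checked with 10 fixed markers, whose summed level was 66772 to 99283 CPM (counts scaled to a common library size) and none of which was at 0. RNA typical of other cells was also present. The 12 macrophage markers summed to 541 to 4936 CPM, 6 epithelial markers to 5.59 to 49.6 CPM and 4 endothelial markers to 67.4 to 109.6 CPM. Of these, Cldn4 alone was at 0 in any library, in 3 libraries of B12 + MAT2Ai or NSC. The share of counts from mitochondrial genes was highest in NSC of MEF 61.3 (2.33%) and lay between 1.23% and 1.69% elsewhere. In bulk RNA, fewer cells of a type and less RNA per cell cannot be told apart.

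Positions are given on GRCm38. Setd2 is at chr9:110532597-110618633 on the plus strand, Nsd1 at chr13:55209782-55318325 (plus), Nsd2 at chr5:33820725-33897975 (plus), Nsd3 at chr8:25601601-25719667 (plus) and Ash1l at chr3:88950622-89079375 (plus). Psip1 is at chr4:83455680-83486459 (minus), Morf4l1 at chr9:90091665-90114774 (minus) and Zmynd11 at chr13:9684833-9765330 (minus). Supt6 is at chr11:78206746-78245987 (minus) and Iws1 at chr18:32067741-32104328 (plus). Most are long transcripts. The summed exon length was 17.5 kb for Nsd1, 16.8 kb for Nsd2, 16.5 kb for Nsd3, 14.8 kb for Ash1l and 10.8 kb for Setd2, against 5.08 kb for Psip1, the shortest. No member shared exon bases with another gene on its own strand. Counting used strand, and 6 members shared 60 to 1499 exon bases with a gene on the opposite strand, most of all Morf4l1. A processed pseudogene of Morf4l1 is annotated on chromosome 16, and how reads that match both copies were handled is not given in the sources used here, so the Morf4l1 count is uncertain to that extent.

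Per kilobase of exon, Morf4l1 was the most abundant member and Iws1 the least. Morf4l1, which encodes the chromodomain protein MRG15, averaged 39.4 RPKM, that is CPM divided by the exon length in kilobases, over the 8 libraries, which placed it above 91.9% of tested genes. Psip1 (17.7 RPKM) and Supt6 (15.4 RPKM) followed. Setd2 (9.91 RPKM), Zmynd11 (8.89 RPKM), Nsd1 (7.34 RPKM) and Ash1l (6.32 RPKM) lay in the middle, and Nsd3 (5.15 RPKM), Nsd2 (4.55 RPKM) and Iws1 (4.14 RPKM) were lowest, Iws1 still above 52.9% of tested genes. Several neighbours in this order overlapped in range across the libraries. Setd2 ran from 8.63 to 12.2 RPKM and Zmynd11 from 8.37 to 9.52 RPKM, and Nsd2 ran from 4.11 to 5.19 RPKM and Iws1 from 3.91 to 4.68 RPKM. Morf4l1 stood clear of all the others, with 38.6 RPKM in its lowest library against 21.8 RPKM in the highest Psip1 library.

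To show what lies at the start of genes that moved together across the libraries and of a member that did not, promoter sequences from RefSeq (GRCm38.p6, 250 bases before to 50 bases after the start) are given for Setd2 and Supt6 and for Morf4l1. Of the 10 members, 4 were matched to the promoter table, namely these and Zmynd11, which has 4 listed starts. Capitals mark the GC box GGGCGG on either strand, the letters bound by the transcription factor SP1, and copies that overlap are counted separately. The Setd2 promoter (chr9:110532347-110532646, plus strand) reads
Setd2: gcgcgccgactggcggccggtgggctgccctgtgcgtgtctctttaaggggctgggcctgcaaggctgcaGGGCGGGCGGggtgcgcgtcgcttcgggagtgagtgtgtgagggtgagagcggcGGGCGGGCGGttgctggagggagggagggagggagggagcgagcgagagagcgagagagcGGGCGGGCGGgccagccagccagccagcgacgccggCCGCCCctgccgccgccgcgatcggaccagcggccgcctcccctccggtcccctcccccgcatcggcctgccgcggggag
The Supt6 promoter (chr11:78245654-78245953, minus strand) reads
Supt6: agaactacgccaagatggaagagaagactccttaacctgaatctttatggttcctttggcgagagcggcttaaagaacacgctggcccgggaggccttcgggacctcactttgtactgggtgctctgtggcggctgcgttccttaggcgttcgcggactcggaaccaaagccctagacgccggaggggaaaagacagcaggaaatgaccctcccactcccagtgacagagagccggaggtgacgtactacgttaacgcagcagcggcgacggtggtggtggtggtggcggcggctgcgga
The Morf4l1 promoter (chr9:90114771-90115070, minus strand) reads
Morf4l1: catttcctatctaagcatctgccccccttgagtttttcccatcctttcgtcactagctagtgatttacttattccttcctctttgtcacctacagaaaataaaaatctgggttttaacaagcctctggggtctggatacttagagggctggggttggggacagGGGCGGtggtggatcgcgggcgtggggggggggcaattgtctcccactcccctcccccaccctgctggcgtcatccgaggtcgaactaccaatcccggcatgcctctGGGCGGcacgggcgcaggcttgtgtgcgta
The Setd2 window held 7 GC boxes and 38 CpG pairs, the Supt6 window held 0 GC boxes and 24 CpG pairs, and the Morf4l1 window held 2 GC boxes and 13 CpG pairs. Across the 32851 promoters of the table, 35.7% held at least 1 GC box and the median was 7 CpG pairs. The E-box CACGTG (in 7.15% of all promoters) and the octamer ATTTGCAT that Oct4 binds (1.74%) were in none of the 3 windows, and CCAAT (37.4%) was in that of Morf4l1 only among the 3. These are matches of letters and say nothing of whether a factor was bound.

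**Figure D1:**
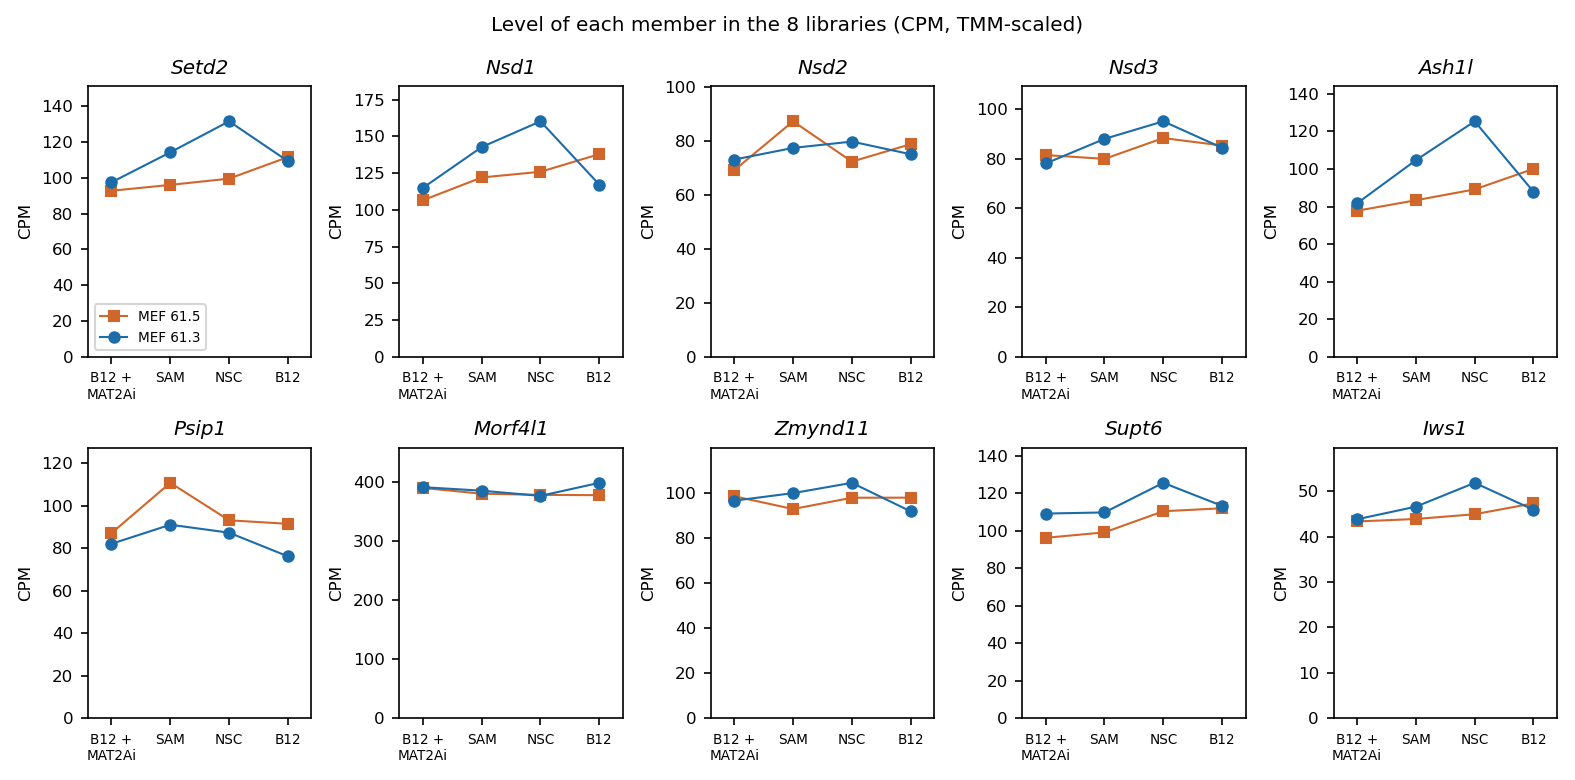
Level of each of the 10 genes in CPM (vertical axes, starting at 0 and scaled per gene) in the 8 libraries, by treatment (horizontal axes), with squares for MEF 61.5 and circles for MEF 61.3 joined within each MEF. Morf4l1 stays between 376 and 398 CPM, while Ash1l spans 77.8 to 125 CPM with its highest point in the NSC library of MEF 61.3.

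Levels of the members varied to different degrees, with a median near that of genes of similar abundance. In the values that follow, those of a treatment are for MEF 61.5 and then for MEF 61.3. The coefficient of variation over the 8 libraries was 2.07% for Morf4l1 and 16.7% for Ash1l, with a median of 7.73% over the 10. For comparison, the median was 6.86% over the 4256 tested genes with a mean between 45.9 and 384 CPM, the range of the members' means. No member passed the test of all treatments together, in which 10.8% of tested genes were called at an adjusted p below 0.05. Psip1 came closest (adjusted p = 0.0700). Of the 10 members 4 were below an unadjusted p of 0.05, against 5024 of the 19392 tested genes. DESeq2 also called 0 members there. Other settings gave calls, namely of Setd2, Nsd1, Ash1l and Psip1 with no filter on low counts, of Psip1 with scaling to total counts, of Setd2, Nsd1 and Ash1l without B12 of MEF 61.3, of Nsd1, Ash1l and Psip1 without B12 of MEF 61.5, and of Ash1l without NSC of MEF 61.5.

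Among the writers, Setd2 carries out most trimethylation of H3K36. It had 92.8 and 97.5 CPM in B12 + MAT2Ai, 96.1 and 114 CPM in SAM, 99.6 and 132 CPM in NSC, and 112 and 109 CPM in B12. The B12 + MAT2Ai libraries were both below the B12 libraries with no overlap, whereas the SAM and NSC libraries lay on either side of B12. Here and below, the share of all tested genes whose groups did not overlap is not given. Over B12, the log2 fold change of Setd2 was −0.22 ± 0.09 for B12 + MAT2Ai (SE, 95% interval −0.42 to −0.02, adjusted p = 0.588), −0.08 ± 0.09 for SAM (adjusted p = 0.706) and 0.05 ± 0.09 for NSC (adjusted p = 0.862). None of these passed the test. Its interval for SAM over B12 ran from −0.28 to 0.12.

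Nsd1, a mono- and dimethyltransferase whose loss in people causes an overgrowth syndrome, had 106 and 115 CPM in B12 + MAT2Ai, 122 and 143 CPM in SAM, 126 and 160 CPM in NSC, and 138 and 117 CPM in B12. Ash1l, a dimethyltransferase of the Trithorax group that is stimulated by MRG15, had 77.8 and 81.8 CPM in B12 + MAT2Ai, 83.4 and 105 CPM in SAM, 89.2 and 125 CPM in NSC, and 100.1 and 87.9 CPM in B12. Both genes were lowest in the B12 + MAT2Ai libraries, and both were highest in the NSC library of MEF 61.3. In neither did the order of SAM, NSC and B12 hold in both MEFs, since B12 was the highest of the 4 treatments in MEF 61.5 and lay below SAM and NSC in MEF 61.3.

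Nsd2 and Nsd3 are the other members of the NSD family. Nsd2 had 69.1 and 73.0 CPM in B12 + MAT2Ai, 87.1 and 77.3 CPM in SAM, 72.2 and 79.6 CPM in NSC, and 78.7 and 75.0 CPM in B12. Its highest library was SAM of MEF 61.5, which set it apart from the other writers. Nsd3 had 81.5 and 78.1 CPM in B12 + MAT2Ai, 79.97 and 88.0 CPM in SAM, 88.4 and 95.1 CPM in NSC, and 85.4 and 84.4 CPM in B12. Both NSC libraries of Nsd3 lay above both B12 libraries, and the log2 fold change of NSC over B12 was 0.11 ± 0.07 (SE, adjusted p = 0.542).

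Among the readers, Psip1 encodes LEDGF, a PWWP protein of transcribed chromatin that also tethers the integrase of HIV. It had 87.2 and 82.2 CPM in B12 + MAT2Ai, 111 and 91.2 CPM in SAM, 93.2 and 87.4 CPM in NSC, and 91.6 and 76.3 CPM in B12. SAM was the highest treatment in each MEF, although the lower SAM library (91.2 CPM) overlapped the higher B12 library (91.6 CPM) because MEF 61.5 had more Psip1 throughout.

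Morf4l1 encodes MRG15, which takes part in the NuA4 acetyltransferase and in a SIN3 deacetylase complex. It had 389.6 and 391 CPM in B12 + MAT2Ai, 379.8 and 385 CPM in SAM, 378 and 376 CPM in NSC, and 377 and 398 CPM in B12. Zmynd11, a reader of the mark on the variant histone H3.3 that restrains elongation, had 98.4 and 96.4 CPM in B12 + MAT2Ai, 92.7 and 99.8 CPM in SAM, 97.7 and 104 CPM in NSC, and 97.7 and 91.7 CPM in B12. In neither reader did any comparison reach an unadjusted p below 0.05, and the highest library was above the lowest by a factor of 1.06 for Morf4l1 and 1.14 for Zmynd11.

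The elongation factor SPT6, encoded by Supt6, is a histone chaperone that binds the polymerase, and IWS1 binds SPT6 and is needed to bring SETD2 to it. Supt6 had 96.3 and 109 CPM in B12 + MAT2Ai, 99.2 and 109.8 CPM in SAM, 110.5 and 126 CPM in NSC, and 112 and 113 CPM in B12. Iws1 had 43.3 and 43.8 CPM in B12 + MAT2Ai, 43.9 and 46.6 CPM in SAM, 44.9 and 51.8 CPM in NSC, and 47.3 and 45.9 CPM in B12. As for the writers Setd2, Nsd1 and Ash1l, both genes had their lowest library in B12 + MAT2Ai of MEF 61.5 and their highest in NSC of MEF 61.3.

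**Figure D2:**
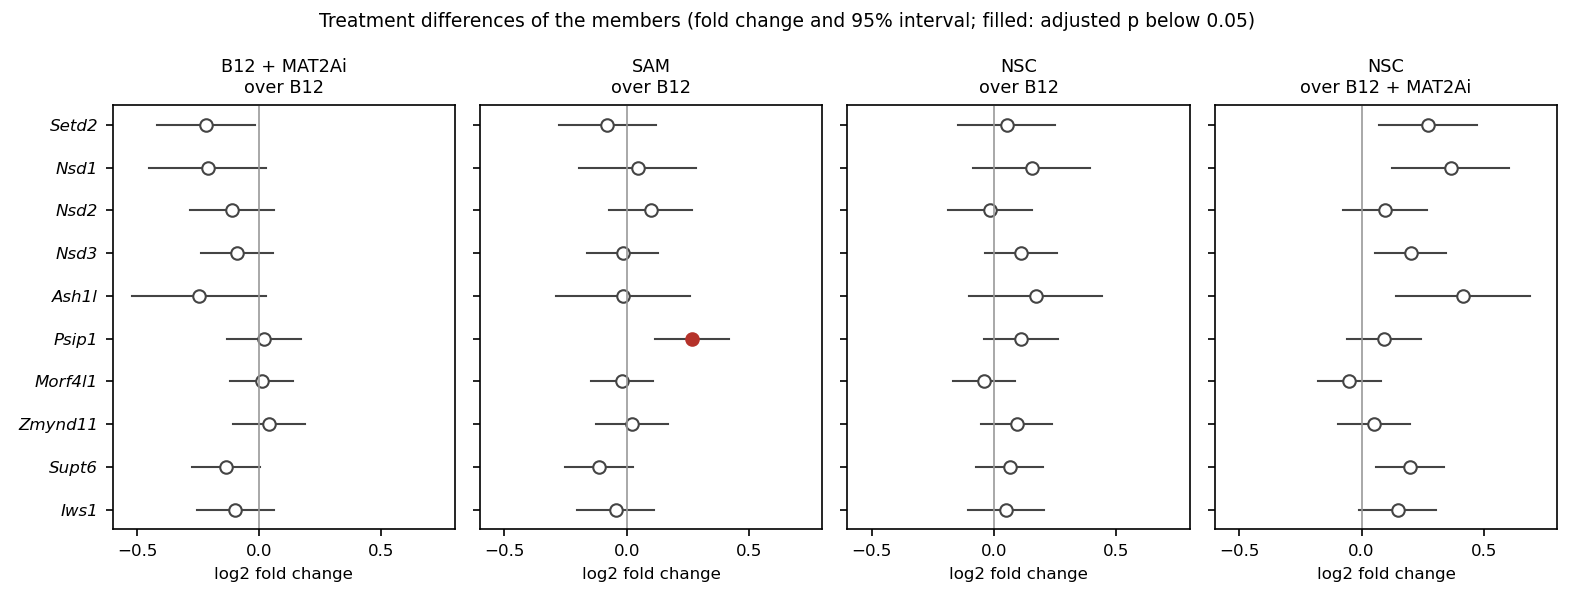
Log2 fold change of each of the 10 genes (points, with lines for the 95% interval) from the model of all 8 libraries, for B12 + MAT2Ai, SAM and NSC over B12 and for NSC over B12 + MAT2Ai. The filled point, Psip1 in SAM over B12 at 0.27, is the only value past an adjusted p of 0.05 in these 4 panels.

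The comparison of B12 + MAT2Ai with B12 asks what blocking the synthesis of S-adenosylmethionine did in the presence of B12. No member was called (0 of 10), against 0.0877% of tested genes in either direction (0.0722% higher and 0.0155% lower). Setd2 alone of the members was below an unadjusted p of 0.05, against 1575 of the 19392 tested genes. DESeq2 also called 0. Setd2, Nsd1, Nsd2, Nsd3, Ash1l, Supt6 and Iws1 had a lower value in B12 + MAT2Ai than in B12 within each MEF, that is 7 of 10 members with all 5 writers among them. For comparison, 29.9% of tested genes were lower within each MEF and 30.5% higher. The median log2 fold change was −0.21 over the 5 writers and −0.11 over the 10 members, against −3.21e-05 over all tested genes. The fold changes of the 3 readers were 0.02 for Psip1, 0.01 for Morf4l1 and 0.04 for Zmynd11. These values depended on which B12 library was kept. Leaving out B12 of MEF 61.5 put the median of the 10 at −0.03, with Nsd1 at 0.03 and Ash1l at 0.01, whereas leaving out B12 of MEF 61.3 put Nsd1 at −0.43 and Ash1l at −0.48, both called. In a fit of only the 4 libraries of these treatments, Setd2 was called (adjusted p = 0.0472). Fibroblast markers summed to 66772 to 77078 CPM in B12 + MAT2Ai and 81579 to 86703 CPM in B12, and endothelial markers to 67.4 to 70.6 CPM in B12 + MAT2Ai and 78.3 to 83.7 CPM in B12, with no overlap and with 0 of 10 and 0 of 4 called. The median log2 fold change was −0.11 over the 10 fibroblast markers. Over the 4 endothelial markers it was 0.09, opposite in direction to their sum. The ranges of the other marker lists overlapped. The part of these in the values of the members was not tested.

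The comparison of SAM with B12 sets the methyl donor against the vitamin that feeds its synthesis. Psip1 rose in SAM, by 0.27 ± 0.07 on the log2 scale (SE, 95% interval 0.12 to 0.42, adjusted p = 0.0371 by the edgeR quasi-likelihood test). This was 1 of 10 members, against 7.71% of tested genes called in either direction (2.78% higher and 4.93% lower). The difference was 0.28 within MEF 61.5 and 0.26 within MEF 61.3. Psip1 averaged 101 ± 14.0 CPM in SAM and 83.9 ± 10.8 CPM in B12 (SD, n = 2 each), so the spread between the MEFs was close in size to the difference and the call rests on the pairing by embryo. Without the MEF block the adjusted p was 0.668, by DESeq2 it was 0.0599, and with only the 4 libraries of these treatments it was 0.104. The call was also lost without either SAM library, the B12 library of MEF 61.3 or either B12 + MAT2Ai library, with adjusted p-values of 0.0509 to 0.319 and log2 fold changes of 0.20 to 0.33 over all 8 omissions.

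Other features of the SAM libraries moved with Psip1. All 12 macrophage markers were called lower in SAM than in B12, and their summed level was 541 to 1694 CPM in SAM and 2735 to 4936 CPM in B12, with none at 0 in any library. All 4 reprogramming factors and 3 of the 5 tested epithelial markers were called higher in SAM. The summed levels were 189 to 223 CPM in SAM and 132 to 152 CPM in B12 for the factors, whose counts can hold reads from the cassette as well as from the genes, and 24.1 to 49.6 CPM in SAM and 6.45 to 11.0 CPM in B12 for the 6 epithelial markers. Proliferation markers summed to 1006 to 1186 CPM in SAM and 976 to 1032 CPM in B12, with 0 of 12 called. Endothelial markers summed to 101 to 109.6 CPM in SAM and 78.3 to 83.7 CPM in B12, with 1 of 4 called higher. The part of any of these in the Psip1 value was not tested.

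The other 9 members had log2 fold changes of SAM over B12 between −0.11 for Supt6 and 0.10 for Nsd2, with adjusted p-values of 0.374 to 0.969. Nsd2 and Psip1 were higher in SAM within each MEF, Supt6 was lower within each MEF, and the other 7 had opposite signs in the MEFs. Over all tested genes, 28.6% were higher and 29.6% lower within each MEF.

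The comparison of NSC with B12 sets inhibition of the demethylases against B12. No member was called (0 of 10), against 1.91% of tested genes (0.284% higher and 1.62% lower). Below an unadjusted p of 0.05 were 0 of 10, against 2412 of the 19392 tested genes. DESeq2 also called 0. Nsd3 and Psip1 were higher in NSC within each MEF and no member was lower within each MEF, against 27.5% and 29.1% of tested genes. The largest fold changes were those of Ash1l (0.17 ± 0.12, SE, adjusted p = 0.624) and Nsd1 (0.15 ± 0.11, adjusted p = 0.611), and both came from MEF 61.3, in which they were 0.51 and 0.45, compared with −0.17 and −0.13 in MEF 61.5. Leaving out B12 of MEF 61.5 led to calls for Nsd1 (0.39) and Ash1l (0.42). Proliferation markers summed to 927 to 930 CPM in NSC and 976 to 1032 CPM in B12, with 0 of 12 called, and 3 of 12 macrophage markers were called lower in NSC, with summed levels that overlapped. Their part in the values of the members was not tested.

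SAM was next set against B12 + MAT2Ai. These treatments differ in S-adenosylmethionine, in the inhibitor and in vitamin B12, which the SAM labels do not list, and the 3 cannot be told apart. No member was called (0 of 10), against 8.17% of tested genes (3.36% higher and 4.81% lower), and DESeq2 called 0. Below an unadjusted p of 0.05 were 3 members, against 4074 of the 19392 tested genes. Psip1 differed by 0.25 ± 0.07 on the log2 scale (SE, adjusted p = 0.0504), just outside the threshold, and both SAM libraries were above both B12 + MAT2Ai libraries. Nsd1 (0.26 ± 0.11, adjusted p = 0.208) and Nsd2 (0.21 ± 0.08, adjusted p = 0.142) were likewise apart in every library. So were Ash1l and Iws1, and also Morf4l1, with SAM below. Psip1, Nsd1 and Nsd2 were picked by p-value, which favours such separation, and the share of all tested genes so separated is not given here. In all, 7 of 10 members were higher in SAM within each MEF, against 30.5% of tested genes and 44.2% of the 1419 coding genes with over 10 kb of exon, with 32.7% of tested genes lower. Macrophage markers summed to 541 to 1694 CPM in SAM and 2120 to 4358 CPM in B12 + MAT2Ai, with 12 of 12 called lower. The reprogramming factors summed to 189 to 223 CPM in SAM and 130.4 to 145 CPM in B12 + MAT2Ai, with 4 of 4 called higher. Epithelial markers (24.1 to 49.6 CPM in SAM and 6.43 to 13.7 CPM in B12 + MAT2Ai, 3 of 5 called higher), endothelial markers (101 to 109.6 and 67.4 to 70.6 CPM, 1 of 4) and fibroblast markers (77457 to 94471 and 66772 to 77078 CPM, 3 of 10) were also higher in SAM with no overlap. The part of these in the values of the members was not tested. Leaving out either B12 library, which belongs to neither of these treatments, led to calls for Psip1 (0.25, adjusted p = 0.0225 and 0.0219) and Nsd1 (0.25, adjusted p = 0.0219 and 0.0212).

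NSC against B12 + MAT2Ai gave the largest fold changes of the members. These treatments differ in NSC636819, in the inhibitor of MAT2A and in vitamin B12, which the NSC labels do not list. The 3 cannot be told apart. Ash1l had a log2 fold change of 0.42 ± 0.12 (SE, 95% interval 0.14 to 0.69), Nsd1 of 0.36 ± 0.11 (0.12 to 0.60) and Setd2 of 0.27 ± 0.09 (0.07 to 0.47). Nsd3 and Supt6 each had 0.20, with standard errors of 0.07 and 0.06. These 5 were below an unadjusted p of 0.05, against 4032 of the 19392 tested genes, and had adjusted p-values of 0.0928 to 0.122. Thus 0 of 10 members were called by edgeR, against 3.58% of tested genes (1.76% higher and 1.83% lower), while DESeq2 called Nsd1 (adjusted p = 0.0381). In each of the 5, both NSC libraries were above both B12 + MAT2Ai libraries. They were picked by p-value, which favours such separation, and the share of all tested genes so separated is not given here. Of the 10 members, 8 were higher in NSC within each MEF, against 32% of tested genes, Morf4l1 was lower within each MEF, as were 34% of tested genes, and Zmynd11 had opposite signs. Marker lists separated the same groups. Fibroblast markers summed to 85819 to 99283 CPM in NSC and 66772 to 77078 CPM in B12 + MAT2Ai, with 3 of 10 called higher, and proliferation markers to 927 to 930 CPM in NSC and 1011 to 1052 CPM in B12 + MAT2Ai, with 3 of 12 called lower. Endothelial markers summed to 81.8 to 83.0 CPM in NSC and 67.4 to 70.6 CPM in B12 + MAT2Ai, with 1 of 4 called higher. The median log2 fold change of these 4 was −0.02, opposite in direction to their sum. Of the reprogramming factors 2 of 4 were called higher and of the macrophage markers 2 of 12 lower. The part of these in the values of the members was not tested. The differences were larger in MEF 61.3 for these 5 genes except Supt6. Ash1l differed by 0.20 in MEF 61.5 and 0.62 in MEF 61.3, and Supt6 by 0.20 in each. Without the NSC library of MEF 61.3, the library with the high mitochondrial share, the values were 0.20 for Ash1l, 0.20 for Nsd1, 0.12 for Setd2, 0.16 for Nsd3 and 0.17 for Supt6, and the median of the 10 members was 0.09 against 0.17 with it. Setd2, Nsd1 and Ash1l were called when either B12 library was left out (0.27, 0.36 and 0.41) and when NSC of MEF 61.5 was left out (0.42, 0.52 and 0.62). This comparison and that of B12 + MAT2Ai with B12 share the B12 + MAT2Ai libraries.

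Between NSC and SAM, 0 of 10 members were called, against 9.52% of tested genes (5.1% higher and 4.42% lower). Supt6 (0.17 ± 0.06, SE, adjusted p = 0.111) and Psip1 (−0.16 ± 0.07, adjusted p = 0.184) were below an unadjusted p of 0.05, and DESeq2 called 0. Over all genes, 4835 of the 19392 tested were below an unadjusted p of 0.05. In all, 7 of 10 members were higher in NSC within each MEF, against 36.3% of tested genes and 57.4% of the 1419 coding genes with over 10 kb of exon. Psip1 and Morf4l1 were lower within each MEF, against 33.7% of tested genes. Without NSC of MEF 61.3, 3 of 10 members had a fold change above 0. Proliferation markers fell in NSC relative to SAM, with 6 of 12 called lower and summed levels of 927 to 930 CPM in NSC and 1006 to 1186 CPM in SAM, and 12 of 12 macrophage markers were called higher in NSC. Reprogramming factors (145 to 170.2 CPM in NSC and 189 to 223 CPM in SAM, 3 of 4 called), epithelial markers (5.59 to 13.1 and 24.1 to 49.6 CPM, 3 of 5) and endothelial markers (81.8 to 83.0 and 101 to 109.6 CPM, 1 of 4) were lower in NSC with no overlap. Their part in the values of the members was not tested.

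The embryos differed as well. This comparison sets 1 embryo against 1 other, each with 1 library in each of the 4 treatments. Its p-values take those libraries as replicates and do not cover the spread among embryos in general. An embryo and the culture grown from it cannot be told apart. Psip1 was higher in MEF 61.5 than in MEF 61.3 by 0.18 ± 0.05 on the log2 scale (SE, 1.13-fold, adjusted p = 0.0238) and in each of the 4 treatments. It was 1 of 10 members called, against 18.8% of tested genes in either direction (8.41% higher and 10.3% lower). Setd2 (−0.17 ± 0.06, adjusted p = 0.0848), Supt6 (−0.13 ± 0.04, adjusted p = 0.0628) and Ash1l (−0.18 ± 0.09, adjusted p = 0.196) were lower in MEF 61.5 in value without passing the test. The call of Psip1 was lost without either SAM library or either B12 library (log2 fold change 0.15 in each case). Leaving out either B12 library also led to calls for Setd2 (−0.24), Nsd1 (−0.23), Ash1l (−0.30) and Supt6 (−0.17), all lower in MEF 61.5. All 12 macrophage markers were called lower in MEF 61.5, with a median log2 fold change of −1.20. Also called were 5 of 10 fibroblast markers, lower, and 4 of 5 epithelial markers, 5 of 12 proliferation markers, 3 of 4 reprogramming factors and 1 of 4 endothelial markers, higher in MEF 61.5. The part of these in the Psip1 value was not tested.

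**Figure D3:**
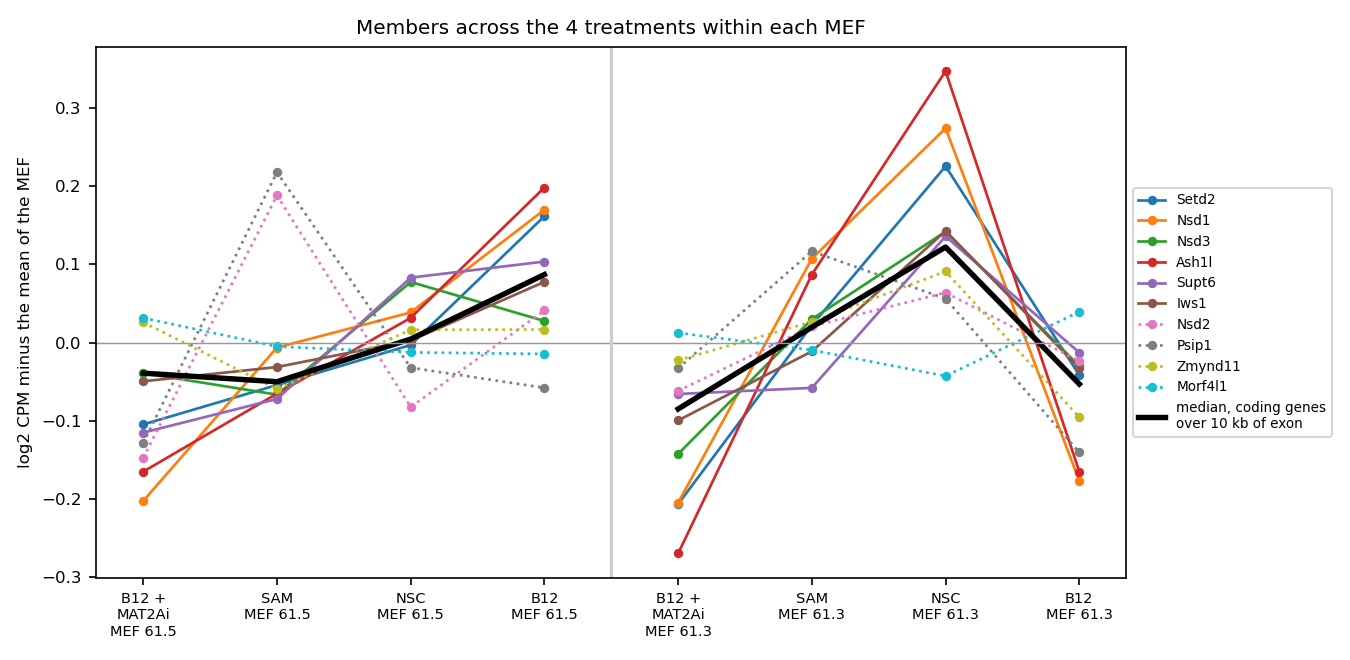
Log2 CPM of each member minus the mean of the 4 libraries of the same MEF (vertical axis) by treatment and MEF (horizontal axis), with solid lines for the 6 members that moved together, dotted lines for the others and a thick black line for the median of 1419 coding genes with over 10 kb of exon. The solid lines and the black line peak together at NSC in MEF 61.3 and at B12 in MEF 61.5 for all but Nsd3, and Psip1 and Nsd2 peak at SAM in MEF 61.5.

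Across the 8 libraries, after the mean of each MEF was subtracted, Setd2, Nsd1, Nsd3, Ash1l, Supt6 and Iws1 went up and down together. Their 15 pairs had correlations (Pearson r, n = 8 libraries) of 0.76 to 0.98, the highest that of Setd2 and Iws1. The 6 were set apart by their profiles in these same libraries, so a high range within them follows from the choice. Over all 45 pairs of members r ran from −0.93 to 0.98. Psip1 and Nsd2 formed another pair (r = 0.81), and Psip1 was hardly correlated with Setd2 (0.17) or Supt6 (−0.06). Morf4l1 ran against the rest, down to r = −0.93 with Nsd1, within its narrow range. These points share libraries, scaling and treatment, so the correlations describe the 8 libraries only. The NSC library of MEF 61.3 was the highest of the 8 for 7 of 10 members, against 17.8% of tested genes, and the B12 + MAT2Ai library of MEF 61.5 was the lowest for 6, against 10.6% of tested genes.

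Genes outside the group followed the same profiles. Among 15571 genes with a mean of at least 1 CPM, 430 had r of at least 0.9 with Setd2, 529 with Nsd1, 592 with Ash1l, 365 with Nsd3, 425 with Iws1 and 221 with Supt6. The most similar to Setd2 was Cep170, which encodes a centrosomal protein (r = 0.996), and the most similar to Nsd1 was Dst, which encodes a large cytoskeletal linker (r = 0.996). Ash1l was nearest to Ncoa6 (r = 0.998), a nuclear receptor coactivator, and to Igf1r (r = 0.997), the receptor of insulin-like growth factor 1. Iws1 was nearest to Lnpep (r = 0.993), Nsd3 to Bicra (r = 0.992) and Supt6 to Crlf2 (r = 0.994). Fewer genes were close to the remaining members. Psip1 had 153 genes at r of at least 0.9, headed by Sall1 (r = 0.995), a zinc-finger transcription factor, and Ntn4 (r = 0.990), a secreted netrin. Nsd2 had 40, headed by Tcof1 (r = 0.968), a nucleolar factor of ribosome synthesis. Morf4l1 had 104, headed by Mrps7 (r = 0.985), a protein of the mitochondrial ribosome, and Zmynd11 had 91.

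**Figure D4:**
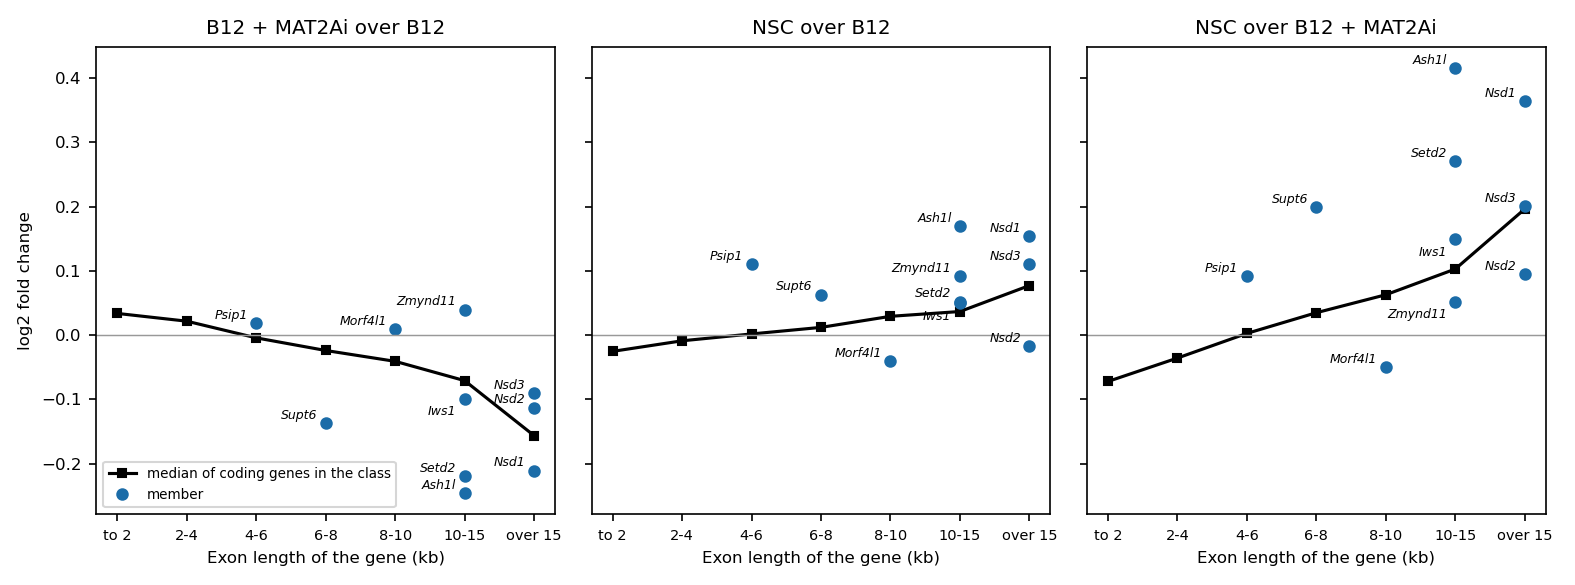
Log2 fold change (vertical axis) by class of summed exon length in kb (horizontal axis) for B12 + MAT2Ai over B12, NSC over B12 and NSC over B12 + MAT2Ai, with black squares for the median of the tested coding genes in each class and blue points for the members. Long genes as a class lie below 0 in the left panel (−0.16 over 15 kb) and above 0 in the right panel (0.20 over 15 kb), and most members lie on the same side.

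Several of the similar genes are long, and exon length was therefore examined, a choice made after the values were seen. Over all tested coding genes the median log2 fold change moved in 1 direction from the shortest to the longest of 7 classes of exon length in 6 of the 7 comparisons. The exception was SAM over B12, the treatment comparison in which Psip1 was called, where it was 0.01 in the shortest class and −0.03 in the longest with reversals between them. For B12 + MAT2Ai over B12 it was 0.03 in the 1955 genes of up to 2 kb and −0.16 in the 391 genes over 15 kb. For NSC over B12 + MAT2Ai it was −0.07 and 0.20 in the same classes, for NSC over SAM −0.03 and 0.12, and for MEF 61.5 over MEF 61.3 it was 0.05 and −0.11. The 7 members over 10 kb (Setd2, Nsd1, Nsd2, Nsd3, Ash1l, Zmynd11 and Iws1) had a median of −0.11 for B12 + MAT2Ai over B12, against −0.09 over the 1419 coding genes of that length. For NSC over B12 + MAT2Ai the medians were 0.20 and 0.12. Of those 1419 genes, 57.0% were lower in B12 + MAT2Ai than in B12 within each MEF, and 56.8% were higher in NSC than in B12 + MAT2Ai within each MEF. Low values in B12 + MAT2Ai relative to B12, and high values in NSC relative to B12 + MAT2Ai, were thus shared by most coding genes over 10 kb. Both comparisons use the B12 + MAT2Ai libraries. For NSC over B12, 19.7% of these long genes were higher and 15.6% lower within each MEF. Setd2, Nsd1, Ash1l, Supt6 and Iws1 lay further from 0 than the median of their class in both comparisons. In all, 5 of 10 members did so for B12 + MAT2Ai over B12 and 7 of 10 for NSC over B12 + MAT2Ai. A median leaves as many genes of a class beyond it as short of it, so these counts alone do not set the members apart. Supt6, with 7.10 kb, and Psip1, with 5.08 kb, are shorter. The part of length in the values of the members was not tested.

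The rest of the H3K36 pathway was examined through 59 further genes, all of which were tested. The lists held 4 other reported H3K36 methyltransferases, 6 H3K36 demethylases, 18 other readers with PWWP or Tudor domains, 11 partners of MRG15 and LEDGF, and 20 genes of the elongation machinery. Few were called. No methyltransferase, demethylase or elongation gene was called in any of the 6 comparisons of treatments, in the comparison of the MEFs or in the test of all treatments together, and the demethylases include Kdm4a and Kdm4b, whose proteins NSC636819 inhibits. In B12 + MAT2Ai against B12 and in NSC against B12, 0 of 59 were called by edgeR, against 0.0877% and 1.91% of tested genes. At an unadjusted p below 0.05 were 7 and 4 of the 59, against 1575 and 2412 of the 19392 tested genes.

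Among the partners, Mrgbp, which encodes a protein of the NuA4 complex that binds MRG15, rose in SAM relative to B12 (log2 fold change 0.28 ± 0.08, SE, adjusted p = 0.0449). It had 19.1 and 18.1 CPM in SAM, against 15.2 and 15.4 CPM in B12, and the groups did not overlap. It was 1 of the 11 partners and 1 of the 59 genes, against 7.71% of tested genes called in that comparison. The call was lost in each of the 8 fits that left out 1 library (log2 fold change 0.23 to 0.33, adjusted p = 0.0674 to 0.268), without the MEF block, with DESeq2 and with only the 4 libraries. The median over the 59 was 0.02, against −0.00241 over all tested genes.

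Among the other readers, Hdgf, a PWWP protein related to LEDGF, had 211 and 187 CPM in SAM, 168 and 148 CPM in NSC, and 163 and 164 CPM in B12 + MAT2Ai. It rose in SAM relative to B12 + MAT2Ai (0.28 ± 0.06, SE, adjusted p = 0.0229) and fell in NSC relative to SAM (−0.33 ± 0.06, adjusted p = 0.00912). Dnmt3a, the de novo DNA methyltransferase that reads H3K36 methylation through its PWWP domain, rose in NSC relative to B12 + MAT2Ai (0.39 ± 0.08, SE, adjusted p = 0.0309). Its levels were 105 and 132 CPM in NSC and 87.3 and 93.8 CPM in B12 + MAT2Ai, so the groups did not overlap. Each of these was 1 of 18 readers called in its comparison. The share of tested genes called was 8.17% and 9.52% for the comparisons of Hdgf and 3.58% for that of Dnmt3a. Single libraries decided these calls. That of Hdgf between SAM and B12 + MAT2Ai was lost without any 1 of the 4 libraries of these treatments (log2 fold change 0.21 to 0.36 over all 8 omissions), and that between NSC and SAM without SAM of MEF 61.5 or NSC of MEF 61.3 (−0.38 to −0.28). Without NSC of MEF 61.3 or either B12 + MAT2Ai library, the call of Dnmt3a was lost (0.26 to 0.51 over all 8 omissions). No call of Hdgf or Dnmt3a was made without the MEF block. Hdgfl3, another HDGF relative, was higher in MEF 61.5 than in MEF 61.3 (0.27 ± 0.06, SE, adjusted p = 0.00801), a call lost without either B12 + MAT2Ai library (0.23 to 0.33 over all 8 omissions). Phf19, a Tudor protein of the Polycomb complex, was called with Hdgf in the test of all treatments together (adjusted p = 0.0496 for Phf19 and 0.0215 for Hdgf). Phf19 had 8.77 and 9.10 CPM in B12 + MAT2Ai, 8.51 and 8.81 CPM in SAM, 8.08 and 8.22 CPM in NSC, and 10.4 and 11.1 CPM in B12. Both B12 libraries were the highest, but the call was lost in each of the 8 omissions (adjusted p = 0.0702 to 0.201), while that of Hdgf was lost in 4 of them, those of either SAM library, of B12 + MAT2Ai of MEF 61.5 and of NSC of MEF 61.3.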

How the data were processed

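Stranded mRNA libraries of 8 MEF cultures were analysed. The authors aligned the reads with STAR 2.5.2b to the mouse genome (mm10, GRCm38), counted them per gene and strand with featureCounts against Ensembl annotation, summed technical replicates, and deposited the raw counts of 55487 genes, with no filter stated. How reads matching several places were treated is not given in the sources used here. The deposited counts totalled 27498180 to 38565685 per library.

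Genes with low counts were removed with filterByExpr (minimum count 10), which left 19392 genes. Differences were tested in edgeR 4.0.16 (R 4.3.3) with TMM scaling and the quasi-likelihood F-test, in 1 model of treatment and MEF over all 8 libraries. The tests covered 6 comparisons of treatments, the MEFs, and all treatments together. P-values were adjusted by Benjamini-Hochberg over all tested genes and called below 0.05. CPM are counts scaled to the TMM-adjusted library size. RPKM divide these by the summed exon length of GENCODE release 21, in which 55227 genes were matched and 260 were not. Within-MEF differences are of log2 CPM with a prior count of 2. The fits were tested on simulated data.

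Treatments were paired by embryo, since the labels name the MEF of each library. Same-MEF libraries deviated together from their treatment means (r = 0.424 to 0.559 over 6 pairs of treatments). No library was a copy of another, as the closest pair differed by 7.44 times the variance that counting alone gives.

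All 10 members are named. Of 59 other genes of the pathway, up to 4 called higher and up to 4 called lower with 1 sign in both MEFs are named in each comparison. Up to 3 genes per member are named for the most similar profile, by Pearson r of log2 CPM after subtracting each MEF mean. The members and the lists, including the markers of fibroblasts, macrophages, epithelium, endothelium and proliferation and the reprogramming factors, were chosen with earlier results of these data known, and the study of exon length was added after the values were seen. Alternatives were DESeq2 1.42.0, its size factors, scaling to total counts, 2 other filters, no MEF block, only the 4 libraries compared, and omission of each library in turn. With 2 libraries per treatment, the p-values between treatments rest on how far the treatment differences disagreed between the 2 embryos, over all 4 treatments. Each gene had 3 residual degrees of freedom for this. The test joined them to 7.92 prior degrees of freedom, which carry the spread of the other tested genes. The mean difference between the embryos is taken out by the MEF term.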

Additional observations from a re-analysis of the deposited data

Results flagged for a closer look

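In the comparison of SAM with B12, 3 members moved in opposite directions in the 2 embryos, each by more than counting error. Nsd1 differed by −0.18 in MEF 61.5 and 0.28 in MEF 61.3 on the log2 scale, Ash1l by −0.26 and 0.25, and the reader Zmynd11 by −0.0763 and 0.122. In the comparison of NSC with B12, 4 writers did so. Setd2 differed by −0.16 in MEF 61.5 and 0.27 in MEF 61.3, Nsd1 by −0.13 and 0.45, Nsd2 by −0.12 and 0.0875, and Ash1l by −0.17 and 0.51. Over all tested genes, 28.6% were higher and 29.6% lower within each MEF for SAM against B12. For NSC against B12 these shares were 27.5% and 29.1%. The remaining genes did not keep 1 sign, so opposite signs were common among all genes. The share of them beyond counting error is not given here. Each MEF has 1 library per treatment, so the difference between the MEFs was not tested. All 7 values share the B12 library of their MEF, in which Setd2, Nsd1 and Ash1l were higher in MEF 61.5 (112, 138 and 100.1 CPM) than in MEF 61.3 (109, 117 and 87.9 CPM). The NSC libraries ran the other way for these genes. They had 99.6, 126 and 89.2 CPM in MEF 61.5 and 132, 160 and 125 CPM in MEF 61.3. In SAM, Nsd1 and Ash1l were also lower in MEF 61.5 (122 and 83.4 CPM) than in MEF 61.3 (143 and 105 CPM). For Setd2 the B12 libraries were close and the NSC libraries further apart.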

How the results depend on the processing

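Psip1, the member called in the main fit, kept its sign in SAM over B12 and between the MEFs in every alternative run. Some fold changes called only in an alternative run did turn round. Over the omissions of a library, Nsd1 ran from −0.43 to 0.03 and Ash1l from −0.48 to 0.01 for B12 + MAT2Ai over B12. For NSC over B12, Nsd1 ran from −0.07 to 0.39 and Ash1l from −0.07 to 0.42. Of the members' fold changes recomputed, 972 kept their side of the threshold, 46 gained a call and 12 lost one. The counts of members called, out of 10, moved as follows. By DESeq2 it was 0 for SAM against B12 and 1 for NSC against B12 + MAT2Ai. With DESeq2 size factors or a filter at 1 CPM it was 1 for SAM against B12 + MAT2Ai, and scaling to total counts gave 1 in the test of all treatments. With no filter on low counts it was 3 for SAM and for NSC against B12 + MAT2Ai, 3 between the MEFs and 4 over all treatments. In fits of only the 4 libraries compared it was 1 for B12 + MAT2Ai against B12, 0 for SAM against B12, 4 for SAM and 3 for NSC against B12 + MAT2Ai, and 2 for NSC against SAM. Over the 8 omissions of a library it was 0 to 2 for B12 + MAT2Ai against B12, 0 to 1 for SAM against B12, 0 to 2 for NSC against B12, 0 to 2 for SAM and 0 to 3 for NSC against B12 + MAT2Ai, 0 for NSC against SAM, 0 to 4 between the MEFs and 0 to 3 over all treatments. In these fits a treatment left with 1 library is assumed to vary like the others. The cause of these changes was not tested.

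Without the MEF block, that is without the pairing by embryo, 0 members and 0 of the 59 pathway genes were called in any comparison of treatments, so the calls of Psip1 in SAM against B12, Mrgbp, Hdgf, Dnmt3a and Phf19 were lost. Over all genes 0 were called for B12 + MAT2Ai against B12, 0 for SAM against B12, 2 for NSC against B12, 0 for SAM and 1 for NSC against B12 + MAT2Ai, 1 for NSC against SAM and 1 over all treatments. The comparison of the MEFs cannot be made without the MEF term.

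With the block, 17, 1495, 370, 1584, 695 and 1847 genes were called in the 6 comparisons in the same order, 3636 between the MEFs and 2088 over all treatments. Omitting a library gave 1 to 373, 898 to 1429, 38 to 780, 600 to 2168, 42 to 1672, 605 to 2717, 2373 to 3820 and 1218 to 3282. Other counts over 1.5 times apart were, with no filter, 452 for B12 + MAT2Ai against B12, 1025 for NSC against B12, 1873 for NSC against B12 + MAT2Ai, 2895 for NSC against SAM and 4000 over all treatments. DESeq2 gave 43 for B12 + MAT2Ai against B12, 1172 for NSC against SAM and 2402 between the MEFs. Fits of only 4 libraries gave 313, 2020 and 3340 for B12 + MAT2Ai against B12, NSC against B12 + MAT2Ai and NSC against SAM. Scaling to total counts moved the balance of directions, with 299 of 895 called genes higher in NSC than in B12 + MAT2Ai (341 of 695 with TMM), 849 of 1959 higher in NSC than in SAM (989 of 1847) and 3463 of 4901 higher in MEF 61.5 (1631 of 3636). The pathway genes called were 0 to 7 of 59 in the comparisons of treatments, 0 to 12 between the MEFs and 0 to 8 over all treatments across all alternatives. Standard errors had a median of 0.0993 on the log2 scale over all tested genes.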
